A study of Mus musculus with 6 samples.

Results

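Pyruvate entry into the mitochondrion and the citric acid cycle were followed through 9 genes, chosen by name from the 21017 genes of a deposited count table: Mpc1, Mpc2, Pdha1, Cs, Idh2, Idh3a, Ogdh, Fh1 and Mdh2. All 9 had a row and passed the filter on low counts. The RNA came from ILC2s (group 2 innate lymphoid cells, a kind of lymphocyte that makes type 2 cytokines and lacks rearranged antigen receptors), in 3 libraries of IL-10-producing ILC2s and 3 of IL-10-negative ILC2s. Both populations came from the lungs of C57BL/6J mice aged 8 weeks that carried an IL-10GFP reporter allele, and all mice had been given IL-33 (0.5 µg per mouse) through the nose 3 times. The sorted cells of both groups were held for 48 h in IL-2, IL-7 and IL-4, each at 10 ng/mL, and only then separated by IL-10 production, so the label that calls them freshly sorted covers cultured cells. The labels do not say whether a library is a separate mouse, pool or culture. The p-values below thus set a group difference only against the spread of these libraries, and that spread may be technical.

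Pyruvate made by glycolysis crosses the inner mitochondrial membrane through the mitochondrial pyruvate carrier, a complex of the MPC1 and MPC2 proteins. The pyruvate dehydrogenase complex turns it into acetyl-CoA, citrate synthase joins this to oxaloacetate, and the cycle then runs through isocitrate, 2-oxoglutarate, succinate, fumarate and malate back to oxaloacetate. In activated lymphocytes the cycle feeds electrons to the respiratory chain and exports citrate and other carbon for building lipids and amino acids.

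The IL-10-producing libraries held 47012941 to 69511433 counts and the IL-10-negative libraries 51218587 to 57989729. Il10 had 848 ± 7.78 CPM in IL-10-producing cells, against 13.5 ± 0.608 CPM in IL-10-negative cells (SD, n = 3 each), which checks the labels of the sort. CPM is the count per unit of library size, here scaled between libraries with TMM factors. All 10 ILC2 markers, Gata3, Il7r and Il1rl1 among them, were above 5 CPM in IL-10-producing cells. Their sums were 9376 to 9416 CPM in IL-10-producing against 10410 to 10519 CPM in IL-10-negative libraries. Of these 10 markers 5 were lower in IL-10-producing cells, Gata3 and Il1rl1 among them, 3 were higher, Klrg1 among them, and 2 did not pass. Lower and higher mean an adjusted p under 0.05 in the edgeR test described below, which called 18.6% of all tested genes lower and 17.1% higher. Of 12 T-cell markers 11 were lower and 1 higher in IL-10-producing cells. Their summed level was 118 to 121 CPM in IL-10-producing against 174 to 181 CPM in IL-10-negative libraries. Most of the IL-10-producing sum was Trbc2, Lef1 and Trbc1, at 48.2, 41.5 and 18.8 CPM, against 58.3, 33.1 and 21.2 CPM in IL-10-negative cells. Cd8a had 0.0594 CPM in IL-10-producing against 15.3 CPM in IL-10-negative cells. All 11 tested granulocyte, basophil and mast cell markers were lower, with sums of 13.8 to 15.6 CPM in IL-10-producing against 105 to 111 CPM in IL-10-negative libraries. The other sums, each in IL-10-producing against IL-10-negative libraries, were 41.7 to 44.2 against 36.8 to 38.0 CPM for B cells, 77.1 to 88.8 against 19.0 to 20.4 CPM for natural killer cells, 61.9 to 63.8 against 66.3 to 68.8 CPM for macrophages and dendritic cells, and 119 to 125 against 103 to 111 CPM for epithelium, endothelium and stroma. Of their tested markers 4 of 6, 2 of 4, 4 of 7 and 1 of 3 were lower, and 1, 2, 1 and 1 were higher. The natural killer sum was mostly Gzma, a granzyme, at 75.9 CPM in IL-10-producing against 10.3 CPM in IL-10-negative cells. Without Gzma it was 5.71 to 6.69 CPM in IL-10-producing against 8.99 to 9.79 CPM in IL-10-negative libraries. Prf1 made up most of that IL-10-producing sum and was also higher, at 6.24 CPM in IL-10-producing against 4.79 CPM in IL-10-negative cells. Klrb1c had 0.0221 CPM in IL-10-producing against 1.43 CPM in IL-10-negative cells, and Eomes had 0.0971 CPM in IL-10-producing against 3.07 CPM in IL-10-negative cells. The natural killer marker Ncr1 had 0 counts in the 3 IL-10-producing libraries, and 7, 13 and 14 counts in the IL-10-negative libraries. Cd3e stood at 1.25 CPM in IL-10-producing against 8.18 CPM in IL-10-negative cells. The part of these other cell types in the values below was not tested, and in sorted bulk samples fewer cells of a type and less RNA per cell cannot be told apart.

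The genes of the cycle did not all move in a single direction. Cs, Fh1 and Mdh2, which form citrate, malate and oxaloacetate, were higher in IL-10-producing cells, while Mpc2, a subunit of the pyruvate carrier, and Ogdh, the first enzyme of the 2-oxoglutarate dehydrogenase complex, were lower. The differences were small: Mpc2 fell by 14.0%, the largest decrease, and Fh1 rose by 9.96%, the largest increase. Mpc1, Pdha1, Idh2 and Idh3a did not pass the test. The test was edgeR's quasi-likelihood F test over all genes with Benjamini-Hochberg adjustment at 0.05, and every adjusted p below is from it. Of the 9 genes 5 were called, 3 higher and 2 lower, beside 35.7% of all 16654 tested genes called, 17.1% higher and 18.6% lower. The groups did not overlap in 6 of the 9 genes, and in 45.2% of all tested genes. The median log2 fold change (IL-10-producing over IL-10-negative) was 0.05 over the 9 genes and -0.0038 over all tested genes. The median size of the 5 called changes was 0.12 on the log2 scale, against 0.22 over all 5943 called genes. Against a change of 1.2-fold (edgeR's glmTreat) 0 of the 9 passed at an adjusted p under 0.05, beside 7.91% of all genes. In that test 0 of the 9 also had an unadjusted p under 0.05, a looser rule whose share over all genes is not given here.

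**Figure D1:**
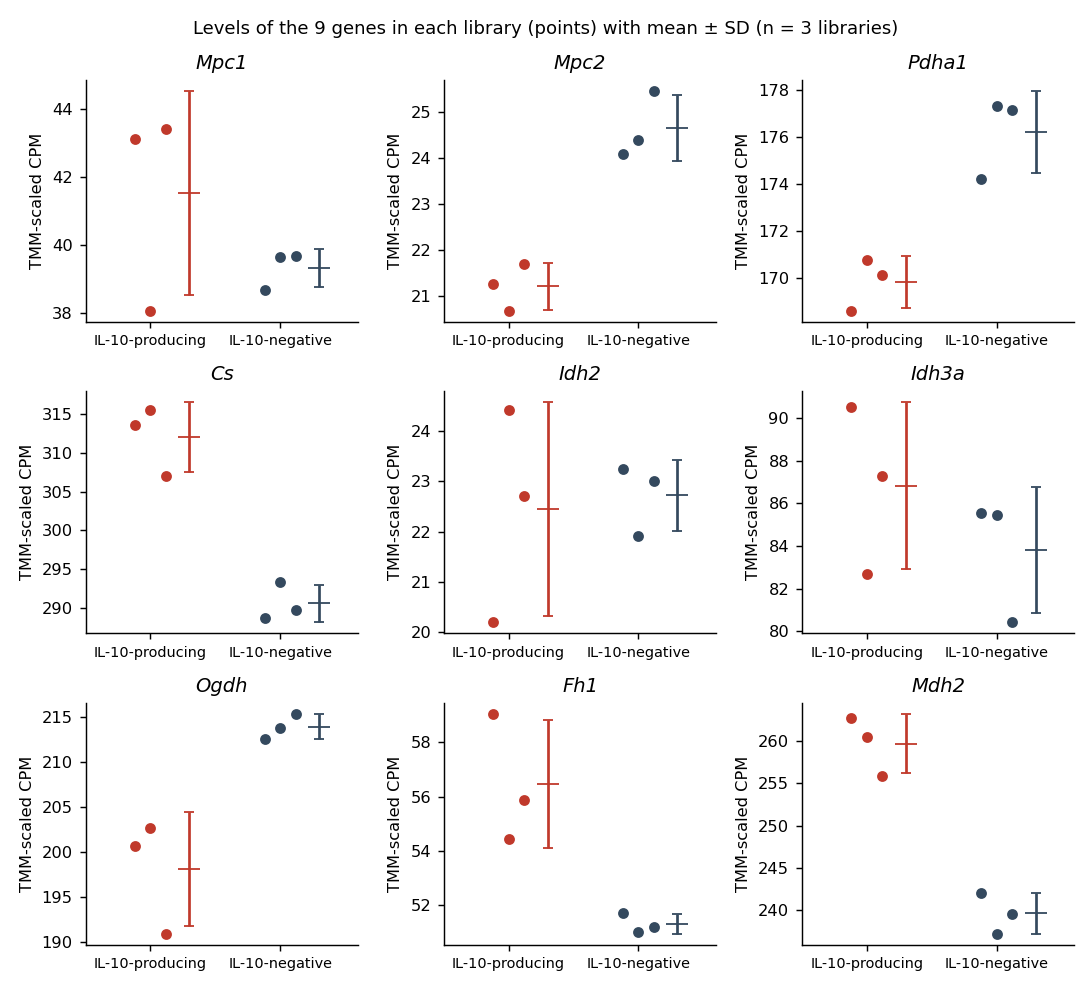
TMM-scaled CPM of the 9 genes in each of the 3 IL-10-producing (red) and 3 IL-10-negative (dark) libraries, with mean ± SD beside the points; the vertical axes do not start at 0. The groups lie apart for Mpc2, Pdha1, Cs, Ogdh, Fh1 and Mdh2 and overlap for Mpc1, Idh2 and Idh3a.

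Of the genes for the pyruvate carrier, Mpc2 was lower and Mpc1 did not pass. Mpc2 (ENSMUSG00000026568.6, mm10, chromosome 1, 165460637 to 165481214) had 21.3, 20.7 and 21.7 CPM in IL-10-producing libraries, and 24.1, 24.4 and 25.5 CPM in IL-10-negative libraries. All 3 IL-10-producing libraries lay below all IL-10-negative ones, with means of 21.2 ± 0.509 and 24.6 ± 0.718 CPM (SD, n = 3 each). Its log2 fold change was -0.22 (SE 0.0489, adjusted p = 0.000926), the largest of the 9 in size. Mpc1 (ENSMUSG00000023861.17, chromosome 17, 8282904 to 8297661) had 43.1, 38.1 and 43.4 CPM in IL-10-producing libraries, and 38.7, 39.6 and 39.7 CPM in IL-10-negative libraries. IL-10-producing replicate 2 was the lowest of all 6, whereas the other two of its group were the highest. The log2 fold change was 0.07 (95% interval -0.02 to 0.17, adjusted p = 0.223). Without IL-10-producing replicate 2 it was 0.14 and passed (adjusted p = 0.0152), in a fit that called 31.8% of all genes. Without any one of the other 5 libraries the adjusted p was between 0.272 and 0.542. After a GC and length correction it was 0.04.

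Counts of Mpc1 are uncertain for a further reason. The pseudogene Mpc1-ps on chromosome 12 took 23.3% to 24.7% of their joint counts in IL-10-producing and 24.7% to 25.5% in IL-10-negative libraries. The counts of Mpc1 were split to fractions of a read, up to 0.45 from a whole number. Such fractions were not particular to Mpc1: the largest distance was 0.5 for Mdh2, 0.44 for Pdha1, 0.2 for Ogdh and 0.14 for Idh3a. It was 0.01 for Idh2 and Fh1, and 0.0 for Mpc2 and Cs. With Mpc1 and Mpc1-ps summed, a setting added after the data had been seen, the log2 fold change was 0.05 (adjusted p = 0.339). An antisense transcript without a row of its own, 4930506C21Rik, also overlaps Mpc1 exons in GENCODE M21, and whether counting used strand is not given in the sources used here. Within a library, where scaling between libraries cancels, the ratio of Mpc1 to Mpc2 counts was 2.03, 1.84 and 2.00 in IL-10-producing and 1.61, 1.63 and 1.56 in IL-10-negative cells. The groups did not overlap, and the difference of 0.29 on the log2 scale had a two-sided exact permutation p of 0.1, the smallest that 3 against 3 libraries allow (adjusted p = 0.25 over the 5 ratios computed). With Mpc1-ps added to Mpc1 the difference was 0.27.

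Pdha1 (ENSMUSG00000031299.10, chromosome X, 160122209 to 160138413) encodes the E1 alpha subunit of pyruvate dehydrogenase, the subunit that carries the phosphorylation sites that switch the complex off. It had 169, 171 and 170 CPM in IL-10-producing libraries, and 174, 177 and 177 CPM in IL-10-negative libraries. The groups did not overlap, but the difference was -3.63% (log2 fold change -0.05, SE 0.0218), and the adjusted p of 0.0595 missed the threshold. It passed with library size only as scaling (log2 fold change -0.08, adjusted p = 0.00341, beside 36.0% of all genes called), after a GC and length correction (adjusted p = 0.0447, 36.1% of all genes) and with a filter of 50 counts in 3 libraries (adjusted p = 0.0492, 43.2% of all genes). Its exons overlap those of Map3k15 on the other strand, which had 1.11 ± 0.127 CPM in IL-10-producing cells, against 1.22 ± 0.162 CPM in IL-10-negative cells. The partner subunits Pdhb, Dlat, Dld and Pdhx did not pass either.

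The kinases that inactivate PDHA1 changed in both directions. Of 10 tested partners and regulators of the complex, Pdk1 and Pdk3 were higher, Pdk2 was lower and 7 did not pass, with a list median of 0.04. Over all tested genes 17.1% were higher and 18.6% lower. Pdk3 had 45.2 ± 0.760 CPM in IL-10-producing cells, against 39.3 ± 0.502 CPM in IL-10-negative cells (log2 fold change 0.20, adjusted p = 7.83e-05). Pdk1 had 49.6 ± 2.40 CPM in IL-10-producing cells, against 44.3 ± 2.10 CPM in IL-10-negative cells (0.17, adjusted p = 0.00231). Pdk2, the least abundant of the 3, had 4.07 ± 0.172 CPM in IL-10-producing cells, against 5.42 ± 0.286 CPM in IL-10-negative cells (-0.42, adjusted p = 0.00206). Dld, the dehydrogenase subunit that several complexes share, had a log2 fold change of 0.07 (adjusted p = 0.0573). Pdk4 fell under the filter. The ratio of Pdk1 to Pdha1 counts was 0.296, 0.304 and 0.277 in IL-10-producing and 0.242, 0.261 and 0.25 in IL-10-negative libraries, without overlap (exact permutation p = 0.1, adjusted p = 0.25).

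**Figure D2:**
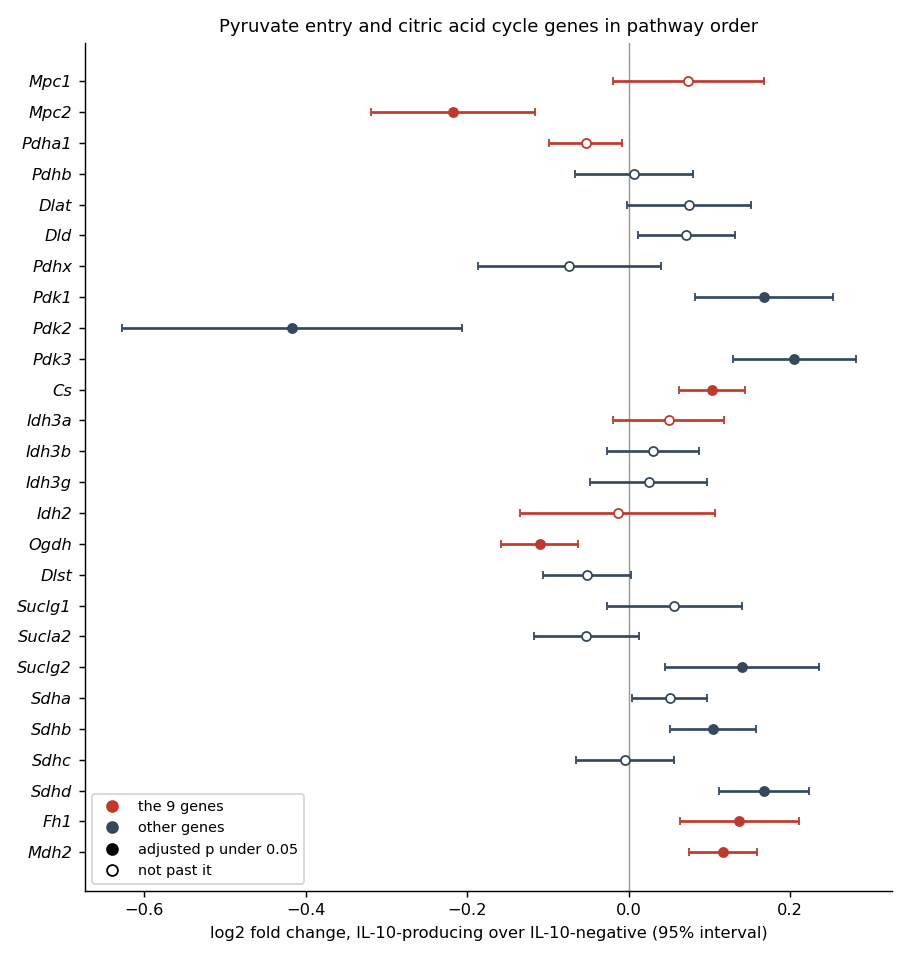
Log2 fold changes (IL-10-producing over IL-10-negative) with 95% intervals for genes of pyruvate entry and the cycle, from carrier to malate dehydrogenase, with the 9 genes in red and filled points past an adjusted p of 0.05. Both directions occur along the path. Cs is to the right of 0 and Ogdh to the left, and Suclg2, Sdhb, Sdhd, Fh1 and Mdh2 are to the right.

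Citrate synthase, encoded by Cs (ENSMUSG00000005683.8, chromosome 10, 128337734 to 128362479), makes the entry step. Cs had 314, 316 and 307 CPM in IL-10-producing libraries, and 289, 293 and 290 CPM in IL-10-negative libraries, so every IL-10-producing library was above every IL-10-negative one. The means were 312 ± 4.47 and 291 ± 2.42 CPM (log2 fold change 0.10, SE 0.0198, adjusted p = 0.000169). Its intronless relative Csl had 0.776 ± 0.0364 CPM in IL-10-producing cells, against 0.748 ± 0.137 CPM in IL-10-negative cells, far below Cs.

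Fumarase and mitochondrial malate dehydrogenase close the cycle, and both of their genes were higher. Fh1 (ENSMUSG00000026526.14, chromosome 1, 175600374 to 175625635) had 59.1, 54.4 and 55.9 CPM in IL-10-producing libraries, and 51.7, 51.0 and 51.2 CPM in IL-10-negative libraries. The groups did not overlap, although the IL-10-producing libraries were more spread (SD 2.36 against 0.360 CPM), and the log2 fold change was 0.14 (SE 0.0358, adjusted p = 0.00361). Mdh2 (ENSMUSG00000019179.10, chromosome 5, 135778480 to 135790398) had 263, 261 and 256 CPM in IL-10-producing libraries, and 242, 237 and 240 CPM in IL-10-negative libraries. It had the smallest adjusted p of the 9 (5.57e-05), with a log2 fold change of 0.12 (SE 0.0204) and no overlap. The cytosolic enzyme's gene Mdh1 had 151 CPM in IL-10-producing against 144 CPM in IL-10-negative cells and passed by little (log2 fold change 0.06, adjusted p = 0.0484). The ratio of Mdh2 to Mdh1 counts overlapped between the groups, with 1.72, 1.77 and 1.67 in IL-10-producing and 1.71, 1.63 and 1.65 in IL-10-negative libraries (exact permutation p = 0.2, adjusted p = 0.333).

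The sequences before the start sites of these 3 higher genes are shown because the genes moved in a single direction. Each is the 250 bases upstream of the RefSeq start site nearest to the deposited gene's 5′ end, from RefSeq on GRCm38.p6, written 5′ to 3′ on the gene's strand. Capitals mark matches on either strand to any of 7 motifs. The letters GGGCGG are known as the GC box. The CCAAT box was searched by the letters of its name. The core that ETS factors bind was searched as CCGGAAG. The cyclic AMP response element was searched as TGACGTCA, and the E-box as CACGTG. The core of the element of the factor NRF1 was searched as CGCATGCG. The remaining motif was TCTCGCGAGA. The last is the longest sequence equal to its own reverse complement that any of these windows held 3 times, so Mdh2 itself picked it. The other motifs were chosen after the values had been seen. No match overlapped another.
Cs (chr10:128337477-128337726, plus strand): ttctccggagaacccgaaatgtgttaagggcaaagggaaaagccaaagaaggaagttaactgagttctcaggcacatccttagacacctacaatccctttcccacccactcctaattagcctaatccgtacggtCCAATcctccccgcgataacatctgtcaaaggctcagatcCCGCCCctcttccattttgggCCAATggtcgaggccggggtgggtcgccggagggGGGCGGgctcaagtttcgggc
Fh1 (chr1:175625636-175625885, minus strand): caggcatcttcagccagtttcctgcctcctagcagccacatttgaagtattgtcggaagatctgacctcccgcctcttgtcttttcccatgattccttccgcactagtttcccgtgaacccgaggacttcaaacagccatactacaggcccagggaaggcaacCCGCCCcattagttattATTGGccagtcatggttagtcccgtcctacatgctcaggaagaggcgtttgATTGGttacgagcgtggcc
Mdh2 (chr5:135778399-135778648, plus strand): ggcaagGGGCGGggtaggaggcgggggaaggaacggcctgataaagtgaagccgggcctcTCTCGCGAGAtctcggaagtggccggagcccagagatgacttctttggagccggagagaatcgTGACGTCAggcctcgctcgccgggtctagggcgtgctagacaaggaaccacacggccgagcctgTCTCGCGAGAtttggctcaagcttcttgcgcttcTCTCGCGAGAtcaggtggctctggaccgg
Mdh2 held TCTCGCGAGA 3 times, at 190, 63 and 29 bases before the start site. Of all 32851 RefSeq promoter windows of that length 0.390% held it at least once, and 2 windows held it 3 or more times. Mdh2 also held TGACGTCA once, as did 1.55% of the windows, and neither Cs nor Fh1 held either motif. Cs had 2 CCAAT boxes and 2 GC boxes, and Fh1 had 2 CCAAT boxes and 1 GC box, motifs found in 33.9% and 32.7% of the windows. The start site used for Mdh2 lies 169 bases inside the deposited gene.

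The 2-oxoglutarate dehydrogenase complex turns 2-oxoglutarate into succinyl-CoA, and Ogdh encodes the decarboxylase that starts the reaction. Ogdh (ENSMUSG00000020456.17, chromosome 11, 6291633 to 6356642) had 201, 203 and 191 CPM in IL-10-producing libraries, and 213, 214 and 215 CPM in IL-10-negative libraries. All IL-10-producing libraries lay below the IL-10-negative ones, replicate 3 farthest, with means of 198 ± 6.32 and 214 ± 1.38 CPM. The log2 fold change was -0.11 (SE 0.0232, adjusted p = 0.000456). Dlst, the succinyltransferase subunit, had 113 CPM in IL-10-producing against 118 CPM in IL-10-negative cells and did not pass (adjusted p = 0.137). The lower genes Mpc2 and Ogdh had these upstream sequences, given for comparison with the higher ones and marked in the same way.
Mpc2 (chr1:165461010-165461259, plus strand): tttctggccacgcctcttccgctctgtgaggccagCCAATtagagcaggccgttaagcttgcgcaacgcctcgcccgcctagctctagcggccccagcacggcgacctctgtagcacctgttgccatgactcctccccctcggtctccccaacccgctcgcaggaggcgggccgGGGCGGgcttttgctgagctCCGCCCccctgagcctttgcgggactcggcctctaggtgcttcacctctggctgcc
Ogdh (chr11:6291409-6291658, plus strand): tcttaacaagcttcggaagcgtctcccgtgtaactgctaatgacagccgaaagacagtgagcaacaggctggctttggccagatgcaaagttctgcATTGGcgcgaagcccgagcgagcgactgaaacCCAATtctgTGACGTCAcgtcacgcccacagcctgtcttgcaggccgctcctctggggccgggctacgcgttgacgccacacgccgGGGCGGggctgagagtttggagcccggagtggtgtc
Mpc2 had 2 GC boxes and 1 CCAAT box. Ogdh had 1 GC box, 2 CCAAT boxes and 1 TGACGTCA, and it is 1 of 6 RefSeq windows for that gene. The start site used for Mpc2 lies 623 bases inside the deposited gene. Among the 8 genes with a window (the table held none for Idh3a), 7 had a GC box, 6 a CCAAT box, 1 (Mpc1) CCGGAAG (6.91% of all windows), and 0 had CACGTG or the NRF1 core, which 6.02% and 1.55% of all windows held. GC boxes thus stood in each of the higher and lower genes. CCAAT boxes also stood in genes of both directions, but the Mdh2 window held 0 of them and 1 GC box.

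None of Idh3a, Idh2 and the partner genes Idh3b and Idh3g passed. Idh3a (ENSMUSG00000032279.11, chromosome 9, 54586334 to 54604661) encodes the catalytic subunit of the NAD-dependent enzyme of the cycle. It had 90.5, 82.7 and 87.3 CPM in IL-10-producing libraries, and 85.6, 85.5 and 80.4 CPM in IL-10-negative libraries, which overlapped (log2 fold change 0.05, 95% interval -0.02 to 0.12, adjusted p = 0.276). Single libraries moved this value: it was 0.02 when either IL-10-producing replicate 1 or IL-10-negative replicate 3 was left out. Leaving out IL-10-producing replicate 2 gave 0.09 (adjusted p = 0.053), and none of these passed. Its partner subunit genes Idh3b and Idh3g had log2 fold changes of 0.03 and 0.02, and neither passed. Idh2 (ENSMUSG00000030541.16, chromosome 7, 80094846 to 80115392) encodes the mitochondrial NADP-dependent enzyme, which makes NADPH. It had 20.2, 24.4 and 22.7 CPM in IL-10-producing libraries, and 23.2, 21.9 and 23.0 CPM in IL-10-negative libraries, with the highest and the lowest value both in IL-10-producing cells. The log2 fold change was -0.01 (95% interval -0.13 to 0.11, adjusted p = 0.89), so a difference of either sign within that interval is not excluded. The ratio of Idh2 to Idh3a counts was 0.223, 0.295 and 0.260 in IL-10-producing and 0.272, 0.256 and 0.286 in IL-10-negative libraries (exact permutation p = 0.7, adjusted p = 0.7). The ratio of Idh2 to Idh1, the cytosolic enzyme's gene, was 1.86, 2.12 and 2.45 in IL-10-producing and 2.04, 1.97 and 2.10 in IL-10-negative libraries (exact permutation p = 0.7, adjusted p = 0.7).

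Among the other cycle enzymes, Sdhd, Sdhb and Suclg2 were higher. Of 12 further cycle genes 3 were higher, 1 was lower and 8 did not pass, with a median of 0.04. Over all tested genes 17.1% were higher and 18.6% lower. Sdhd, a membrane anchor of succinate dehydrogenase, had 97.5 ± 1.43 CPM in IL-10-producing cells, against 86.8 ± 1.22 CPM in IL-10-negative cells (log2 fold change 0.17, adjusted p = 1.81e-05). Sdhb, its iron-sulfur subunit, had a log2 fold change of 0.10 (adjusted p = 0.00223), whereas Sdha and Sdhc did not pass. Suclg2, the GTP-forming subunit of succinyl-CoA ligase, had 0.14 (adjusted p = 0.0194), and its ATP-forming counterpart Sucla2 had -0.05 and did not pass.

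Per length, the 9 genes kept a single order in both groups. In CPM per kb of merged exons (GENCODE M21), cells that made IL-10 and, after them, IL-10-negative cells had 72.9 ± 0.990 and 67.3 ± 0.679 for Mdh2, 54.0 ± 0.773 and 50.3 ± 0.419 for Cs, 45.5 ± 0.298 and 47.2 ± 0.467 for Pdha1, and 36.3 ± 1.16 and 39.2 ± 0.252 for Ogdh. Mpc1 (19.9 ± 1.44 and 18.9 ± 0.269), Idh3a (17.1 ± 0.774 and 16.5 ± 0.580) and Fh1 (16.6 ± 0.695 and 15.1 ± 0.106) were close to each other. Idh2 (8.67 ± 0.821 and 8.78 ± 0.272) and Mpc2 (2.89 ± 0.0693 and 3.35 ± 0.0977) were lowest. Neighbours in this order had separate ranges in the IL-10-producing libraries, except Idh3a and Fh1. Mpc2 and Mpc1, whose products form a single carrier, thus stood at opposite sides of Idh2, though the merged exons of Mpc2 span 7344 bases. The summed level of the 9 genes was 1155 to 1180 CPM in IL-10-producing libraries, and 1141 to 1144 CPM in IL-10-negative libraries.

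Around the cycle lie enzymes that feed it, drain it or repeat its steps in the cytosol. Of 17 tested feeder, exit and cytosolic enzymes 7 were higher and 10 did not pass (median 0.06), beside 17.1% of all tested genes higher. Gpt2, the mitochondrial alanine aminotransferase that makes 2-oxoglutarate and alanine from glutamate and pyruvate, had 66.8 ± 1.08 CPM in IL-10-producing cells, against 47.04 ± 2.11 CPM in IL-10-negative cells (log2 fold change 0.51, adjusted p = 2.06e-11). Me2, which turns malate into pyruvate in mitochondria, had 98.3 ± 0.486 CPM in IL-10-producing cells, against 82.6 ± 3.23 CPM in IL-10-negative cells (0.25, adjusted p = 1.73e-07). Got2, the mitochondrial aspartate aminotransferase, had 182 ± 2.31 CPM in IL-10-producing cells, against 159.9 ± 1.96 CPM in IL-10-negative cells (0.19, adjusted p = 2.4e-07). Acly, which splits exported citrate in the cytosol, had 0.08 (adjusted p = 0.00319). With library size only as scaling, 3 of these enzymes were higher and 1 lower, beside 13.2% of all genes higher and 22.8% lower.

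Of 9 mitochondrial carriers 6 were higher and 3 did not pass (median 0.11), beside 17.1% of all tested genes higher. Slc25a10, the dicarboxylate carrier for malate and succinate, had 24.6 ± 1.11 CPM in IL-10-producing cells, against 19.0 ± 0.127 CPM in IL-10-negative cells (log2 fold change 0.37, adjusted p = 1.85e-06). Slc25a13, an aspartate and glutamate carrier, had 0.30 (adjusted p = 0.00474), and the ADP/ATP carriers Slc25a5 and Slc25a4 had 0.15 and 0.13 (adjusted p = 2.44e-07 and 1.3e-05). Of 16 import and chaperone genes 9 were higher and 7 did not pass (median 0.08), beside the same 17.1%. Hspd1, the mitochondrial chaperonin HSP60, had 262 ± 5.65 CPM in IL-10-producing cells, against 225 ± 0.870 CPM in IL-10-negative cells (0.22, adjusted p = 6.28e-09). Vdac2, an outer-membrane channel, had 0.15, Timm50 of the import machinery 0.13 and Tomm70a, an import receptor, 0.12. With library size only as scaling, 4 of the carriers and 4 of the import and chaperone genes were higher, beside 13.2% of all genes.

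Of 12 tested regulators of mitochondrial gene expression, Hif1a (log2 fold change 0.10, adjusted p = 4.66e-05) and Tfam, which packages mitochondrial DNA (0.12, adjusted p = 0.00805), were higher. These are 16.7% of the 12, beside 17.1% of all tested genes higher. The other 10 did not pass, Tfb1m (0.22, adjusted p = 0.0966) and Yy1 (-0.05, adjusted p = 0.107) among them. Of 5 calcium uniporter genes Mcu was lower and 4 did not pass, beside 18.6% of all tested genes lower. Their channel admits the calcium that activates several dehydrogenases of the cycle. Mcu had 36.4 ± 0.552 CPM in IL-10-producing cells, against 39.9 ± 0.748 CPM in IL-10-negative cells (-0.13, adjusted p = 0.00847). Micu2, Mcub and Smdt1 had -0.08, 0.10 and 0.06. Of 8 genes for lipoylation and succinate dehydrogenase assembly 0 passed in edgeR, DESeq2 (26.6% of all genes called) or limma-voom (35.4%), and 1 (Sdhaf1, -0.18, adjusted p = 0.0535) had an unadjusted p under 0.05 in edgeR. Mcat, Sdhaf2 and Lipt2 had -0.10, -0.06 and 0.16. Over all 8 lists 29 of 89 tested genes were higher and 3 lower (35.96% called, beside 35.7% of all genes), with a median of 0.06. With library size only as scaling these counts were 17 and 9, beside 13.2% of all genes higher and 22.8% lower.

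**Figure D3:**
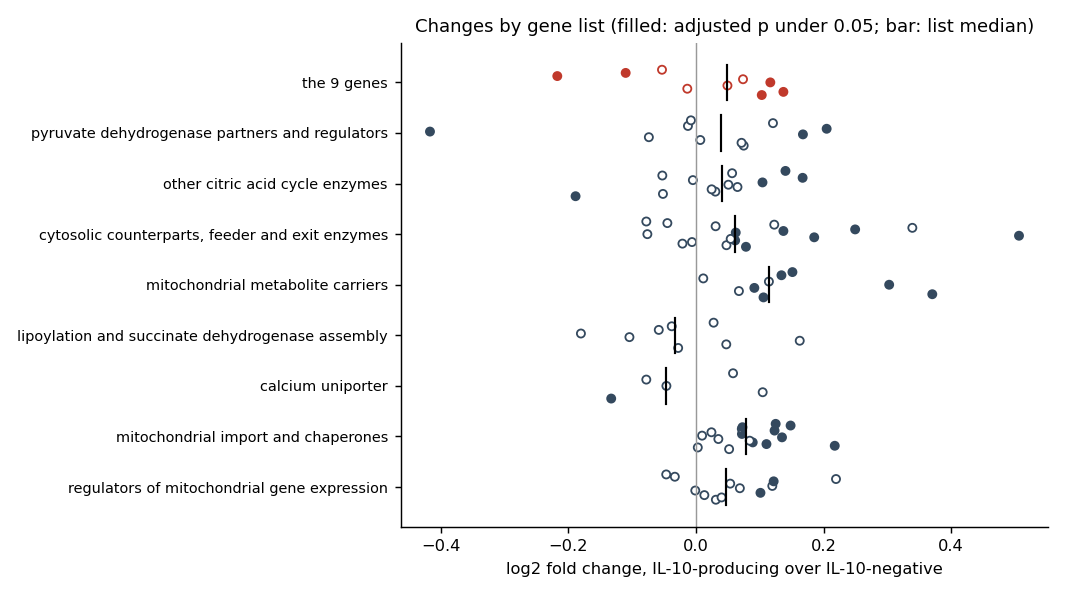
Log2 fold changes (IL-10-producing over IL-10-negative) of each tested gene in the 9 genes (red) and 8 surrounding lists (dark), filled where the adjusted p is under 0.05, with a bar at each median. The median is highest for the carriers (0.11), and the largest single value is that of Gpt2 (0.51).

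Genes whose pattern over the 6 libraries was most like that of each called gene were found by Pearson's r of log2(CPM + 0.5), among 10235 named genes of at least 5 CPM. They are a description with no test, since 6 libraries in 2 groups give high r to many genes: between 103 (for Fh1) and 796 (for Mdh2) had r over 0.95. Closest to Mdh2 were Myo10, an unconventional myosin (r = 0.9991), and Atp5b, the beta subunit of ATP synthase (0.9987). Closest to Cs were Hnrnpf, an RNA-binding protein (0.9985), and Ctsz, a lysosomal cathepsin (0.9984). Closest to Fh1 were Ccdc134 (0.9938) and Uqcrc2, a core subunit of respiratory complex III (0.9921). Closest to Ogdh were Dlgap4 (0.9979) and Ctsd, cathepsin D (0.9958), and closest to Mpc2 were Slc38a7, an amino acid transporter (0.9963), and Lama5, a laminin chain (0.9956).

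**Figure D4:**
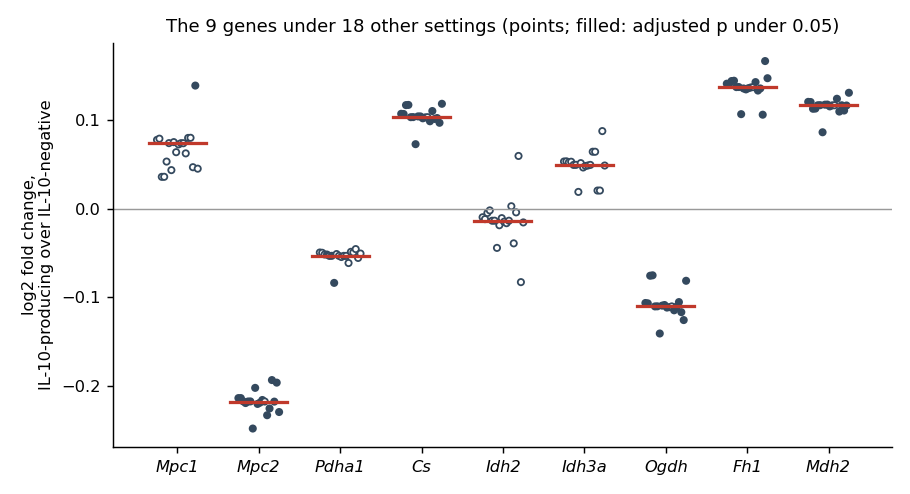
Log2 fold changes (IL-10-producing over IL-10-negative) of the 9 genes under the reported fit (red bars) and under 18 other settings (points, filled where the adjusted p is under 0.05). Cs, Fh1 and Mdh2 stay above 0 and Mpc2, Pdha1 and Ogdh below 0 in all 18, while the points of Idh2 lie on both sides of 0.

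The 5 calls and their directions were kept in 17 of the 18 other settings, the test against 1.2-fold being the exception. Over all 18, the log2 fold change ran from -0.25 to -0.19 for Mpc2, from 0.07 to 0.12 for Cs, from -0.14 to -0.08 for Ogdh, from 0.11 to 0.17 for Fh1 and from 0.09 to 0.13 for Mdh2.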

How the data were processed

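The submitters' processing notes list the build mm10 and the tools STAR 2.5.3a, bcl2fastq 2.17.1.14 and Partek, with no role. The authors deposited estimated counts per gene, not normalized (50.1% of values not whole), and a table of normalized signal for 13824 genes, equal to the count plus 1 times a factor per library (100% of values within 1%). No source used here gives the annotation release; 19917 of 21017 identifiers matched GENCODE M21 at the same position, the listed stop lying 1 base past the end, and ends are given here without that base.

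Estimated counts were rounded and tested with edgeR 4.0.16 (R 4.3.3): TMM, filterByExpr (minimum count 10, total 15; 16654 genes kept), group as the only term. Intervals are 95%. The 9 genes, lists and tests were chosen with earlier results of these data known. Named were the 9 genes, per list up to 4 genes with the smallest p, Il10, and 2 nearest patterns per called gene; Pdk4, Csl, Map3k15, Mpc1-ps, the cell markers and the further subunits and isoenzymes were added after their values were seen. Alternatives also used DESeq2 1.42.0, limma 3.58.1 and mgcv 1.9.3. Between 2 replicates of a group, the median chi-square per gene was 2.39 to 2.96 times the Poisson median, so none was a copy. The mean chi-square per gene ran from 2.91 to 11.3 and was highest for IL-10-producing replicates 2 and 3. The fits were tested on simulated data. The values of 1 gene of a surrounding list are not reported here, though list counts include it.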

Additional observations from a re-analysis of the deposited data

How the results depend on the processing

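The count of changed genes stayed within 1.5 times 5943 (4817 to 6015) in 17 of 18 settings and was 1317 in the test against 1.2-fold, where 0 of the 9 genes were higher, 0 were lower, and 1 and 0 of the other pathway genes were higher and lower. With library size only, 36.8% of all called genes were higher, against 47.8% with TMM, all genes had a median of -0.03 (log2), and 17 other pathway genes were higher and 9 lower. With limma on the authors' normalized values 19 were higher, and with at least 50 counts in 3 libraries 5 were lower. The 5 called genes kept their call without any one library, and Mpc1 passed without IL-10-producing replicate 2. Leaving out a library moved the log2 fold change of Idh2 between -0.0829 and 0.0594 (0.0594 without IL-10-producing replicate 1 and 0.0027 without IL-10-negative replicate 1), that of Idh2/Idh3a between -0.17 and 0.0321 (without IL-10-producing replicate 1), and that of Idh2/Idh1 between -0.0323 (without IL-10-producing replicate 3) and 0.17; the cause was not tested. Per kb of the longest transcript the IL-10-producing levels were 162 for Mdh2, 104 for Cs, 59.6 for Pdha1, 48.0 for Ogdh, 43.2 for Mpc1, 33.7 for Idh3a, 21.4 for Fh1, 12.5 for Idh2 and 5.29 for Mpc2, in the same order (that length is shorter). With the replicate number as a block 5817 genes changed, 3 and 2 of the 9 genes were higher and lower, and no call of the 9 changed. Same-numbered libraries had correlations of deviations from -0.05 to -0.02, so no pairing was seen and the block was not used for the report. These values cannot decide whether same-numbered libraries share a mouse, pool or culture, since the spread may be technical. With GC and length correction plus the replicate block 5845 genes changed. The 9 genes had at least 1015 counts each in each library.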
